A study of Mus musculus with 4 samples.

Results

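The genes described here are the small nucleolar RNA (snoRNA) host genes Gas5, Snhg1, Snhg3, Snhg5, Snhg6, Snhg7, Snhg8 and Snhg12 and the abundant nuclear noncoding RNAs Malat1 and Neat1. They were chosen by name: every array probe whose gene name in the scanner files is one of these 10 symbols was taken. A probe was found for 9 of the 10 genes, of 32562 genes on the array, and these 9 genes had 15 of the 56605 probes. No probe carried the name Malat1, so its level was not analysed here. Probes were taken by name alone, whatever the direction or size of their change. The genes themselves, like the lists further below, were chosen with earlier results of these data known.

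The study compared wild-type (WT) CD4+ T cells with cells lacking the nuclear receptors Nr4a1, Nr4a2 and Nr4a3 (Nr4a-TKO), before and soon after they were set on the path to induced regulatory T (iTreg) cells. RNA was hybridised to Agilent mouse arrays in 1 colour, and each genotype gave 1 array of naive T cells and 1 array of cells after 3 h under iTreg conditions, 4 in all. The Nr4a-TKO genotype joins floxed Nr4a1, floxed Nr4a2 and Nr4a3-/- alleles on C57BL/6J. The Cre driver and the number of animals behind each array are not given in the sources used here. All cells carried the Foxp3 hCD2-hCD52-KI reporter allele, which was used to keep Foxp3+ cells out of the naive sort. Naive cells were sorted as CD4+ CD25low CD44low CD62Lhigh Foxp3- cells from irradiated Rag2-/- bone marrow chimeras. The chimeras that supplied Nr4a-TKO cells also held WT marrow, and those that supplied WT cells held nothing else, so genotype and the kind of chimera cannot be told apart. The 3 h samples had been cultured on anti-CD3 at 2 µg/ml with anti-CD28 at 0.5 µg/ml, IL-2 at 10 ng/ml, TGF-β1 and antibodies to IFN-γ and IL-4. The concentrations of TGF-β1 given are 0.2 and 0.5 ng/ml, without naming the one used for these arrays.

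A snoRNA host gene makes a long transcript whose introns carry snoRNAs. Once the introns are spliced out and trimmed, box C/D snoRNAs guide the 2′-O-methylation of ribosomal RNA and box H/ACA snoRNAs its pseudouridylation, while the spliced exons leave a polyadenylated RNA with little coding capacity that is often removed by nonsense-mediated decay. Many of these genes have promoters of the terminal oligopyrimidine kind, which they share with ribosomal protein genes, and T cells greatly raise ribosome production after antigen receptor stimulation. Neat1 works differently: it stays in the nucleus and is the RNA scaffold of paraspeckles, while Malat1 gathers at nuclear speckles.

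The RefSeq table places 28 snoRNA genes inside the 8 hosts. Gas5 and Snhg1 hold 8 each, Snhg12 holds 4, Snhg3, Snhg5 and Snhg7 hold 2 each, and Snhg6 and Snhg8 hold 1 each. Named examples are Snord47 in Gas5, Snord22 in Snhg1, Snora73a and Snora73b in Snhg3, Snord87 in Snhg6, Snora17 and Snora43 in Snhg7, Snora24 in Snhg8, and Snora16a, Snora44, Snora61 and Snord99 in Snhg12. No snoRNA gene lies inside Malat1 or Neat1. The snoRNAs themselves are not what the host probes measured: each probe is a 60-base oligonucleotide and positions below are on mm9.

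Promoters of the hosts are shown because their start sites are what the group is known for. RefSeq promoters on GRCm38.p6 were at hand for 8 of the 10 genes, with 9 promoters because Gas5 has 2. Each line gives the 40 bases before and the 40 bases from the annotated start on the transcribed strand, 5′ to 3′. Capitals mark a run of at least 5 C or T letters that begins with C within 10 bases of the start, and the letters TATA where they begin 40 to 20 bases before it.
Gas5, upstream start, chr1:161034561-161034640 (+): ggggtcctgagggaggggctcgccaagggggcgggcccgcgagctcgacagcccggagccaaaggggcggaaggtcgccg
Gas5, downstream start, chr1:161035126-161035205 (+): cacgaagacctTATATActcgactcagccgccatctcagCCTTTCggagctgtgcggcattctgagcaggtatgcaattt
Snhg1, chr19:8723447-8723526 (+): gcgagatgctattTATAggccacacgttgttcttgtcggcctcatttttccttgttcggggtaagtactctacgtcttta
Snhg3, chr4:132353647-132353726 (-): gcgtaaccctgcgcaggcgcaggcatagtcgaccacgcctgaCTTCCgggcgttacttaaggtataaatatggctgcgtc
Snhg5, chr9:88522858-88522937 (-): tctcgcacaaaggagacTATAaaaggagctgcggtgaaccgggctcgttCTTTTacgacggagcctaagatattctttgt
Snhg7, chr2:26640205-26640284 (-): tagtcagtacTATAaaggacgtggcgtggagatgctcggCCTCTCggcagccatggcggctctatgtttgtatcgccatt
Snhg8, chr3:123508297-123508376 (-): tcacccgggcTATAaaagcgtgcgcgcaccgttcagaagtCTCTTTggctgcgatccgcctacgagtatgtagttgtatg
Snhg12, chr4:132308638-132308717 (+): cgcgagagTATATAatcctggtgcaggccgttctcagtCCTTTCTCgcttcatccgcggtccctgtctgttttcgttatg
Malat1, chr19:5802633-5802712 (-): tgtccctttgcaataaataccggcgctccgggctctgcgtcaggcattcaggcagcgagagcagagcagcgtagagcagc

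The pyrimidine run was present in 6 of the 8 host promoters, with lengths from 5 to 8 bases, against 30.7% of the 32851 promoters in the table. TATA was present in 6 of the 8 against 5.81% of all promoters, and both together in 5 of the 8 against 1.86%. The search for TATA was chosen after these sequences had been read, so its share is a description only. The downstream Gas5 start, Snhg5, Snhg7, Snhg8 and Snhg12 held both, Snhg1 held TATA alone, Snhg3 held the run alone, and the upstream Gas5 start and Malat1 held neither. In the whole 300-base promoters, on either strand, the E-box CACGTG was in 0 of the 9 (7.15% of all promoters) and the Nr4a monomer site AAAGGTCA in 0 (1.51%). The Ets site CCGGAAGT was in 1, that of Snhg3 (3.89%), where it overlaps the capitalised run on the opposite strand. Letters in a promoter are not evidence of binding.

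Across the 4 arrays, which shared 1 slide and 1 scan, between 65.0% and 67.7% of probes were well above local background and no spot was saturated. Signals below are log2 values after background correction and quantile normalization, and a signal compares the same probe between arrays and never one gene with another. Repeated spots of probes printed on at least 5 spots of an array gave an SD of 0.18 for a log2 difference. For a difference between such differences it was 0.25. This spread, called the spread of the arrays below, comes from spots within an array. It leaves out differences in labelling and hybridisation between arrays, so the technical error can be larger. Variation between mice or cultures was not measured, no p-value can be given, and the number of arrays limits the precision of every value. The arrays do not distinguish fewer cells of a kind from less RNA per cell. All 8 activation genes checked, among them Cd69 and Irf4, were over 2-fold higher at 3 h in both genotypes, and the naive T markers Cd4 and Cd3e were well above background on every array. Probes of 2 of the 3 targeted genes read higher under the Nr4a-TKO label than under the WT label. The naive T signal of Nr4a1 was 7.05 under the WT label and 8.39 under the Nr4a-TKO label. The Nr4a2 probes were higher at 3 h on the array labelled Nr4a-TKO by 1.37 and 1.38. Nr4a3 probes at 3 h differed between the labels by -1.86, -1.47 and 0.19. Arrays keep the names on their labels here, and a direction between genotypes is only as sound as those labels. Which exons the alleles lack, and so what each probe can check, was not analysed here.

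After 3 h of iTreg culture, most snoRNA host RNAs had gone up and Neat1 had gone down, on the WT and the Nr4a-TKO arrays alike. The median log2 change of the 8 hosts was 0.69 in WT, from -0.69 for Snhg8 to 1.44 for Snhg3, and 0.64 in Nr4a-TKO, from -0.47 to 1.74. The median over all genes was -0.05 in WT and -0.02 in Nr4a-TKO. In each genotype 6 hosts were above 0 and 2, Snhg7 and Snhg8, below. Beyond 2-fold, 1 host rose in WT (Snhg3) and 2 in Nr4a-TKO (Snhg3 and Snhg12), and none fell. An increase past 2-fold was found for 8.43% of the 23243 genes tested in WT and for 7.82% of 23729 in Nr4a-TKO. Neat1 was the 1 member more than 2-fold lower in both, as were 8.57% and 8.01% of all genes. With a limit of 1.5-fold, 5 members were higher in each genotype, among 16.9% and 16.3% of all genes, and 2 in WT and 1 in Nr4a-TKO were lower, among 17.6% and 16.7%. With a limit of 3-fold, 0 members in WT and 1 in Nr4a-TKO, Snhg3, were higher, among 3.33% and 2.68%, and 0 were lower in either, among 3.82% and 3.46%. Each gene here takes its probe with the highest mean signal.

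Markers of cell types moved between the same arrays. All 4 B cell markers read lower at 3 h, with changes from -2.54 (Cd79b) to -0.11 in WT and from -1.20 to -0.12 in Nr4a-TKO, and their summed linear signal was 603 and 682 on the WT and Nr4a-TKO naive arrays and 333 and 481 at 3 h. All 8 naive T markers also read lower, with medians of -1.38 and -1.53. Of 4 myeloid markers, 3 read lower in WT, where Cd14 has a bound of -2.89, and 2 in Nr4a-TKO. Their summed signal was 37574, 39662, 34852 and 34547. Most of it comes from the 1 gene Itgam, at 14.98 to 15.14 (log2) on the arrays. Such a sum compares arrays, and not one cell type with another. The erythroid marker Hbb-b1 and the natural killer cell marker Ncr1 were not well above background on any array. The erythroid markers Hba-a1 and Alas2 were well above it on all 4 arrays, and the natural killer cell marker Klrb1c on 3. WT and Nr4a-TKO changes to 3 h were -0.16 and 0.51 for Hba-a1 and -0.01 and 0.36 for Alas2. Both CD8 markers were well above background on every array. Their changes to 3 h, WT first, were -0.68 and -0.84 for Cd8b1 and 0.003 and -0.48 for Cd8a. The part of these markers in the changes of the members was not tested.

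**Figure D1:**
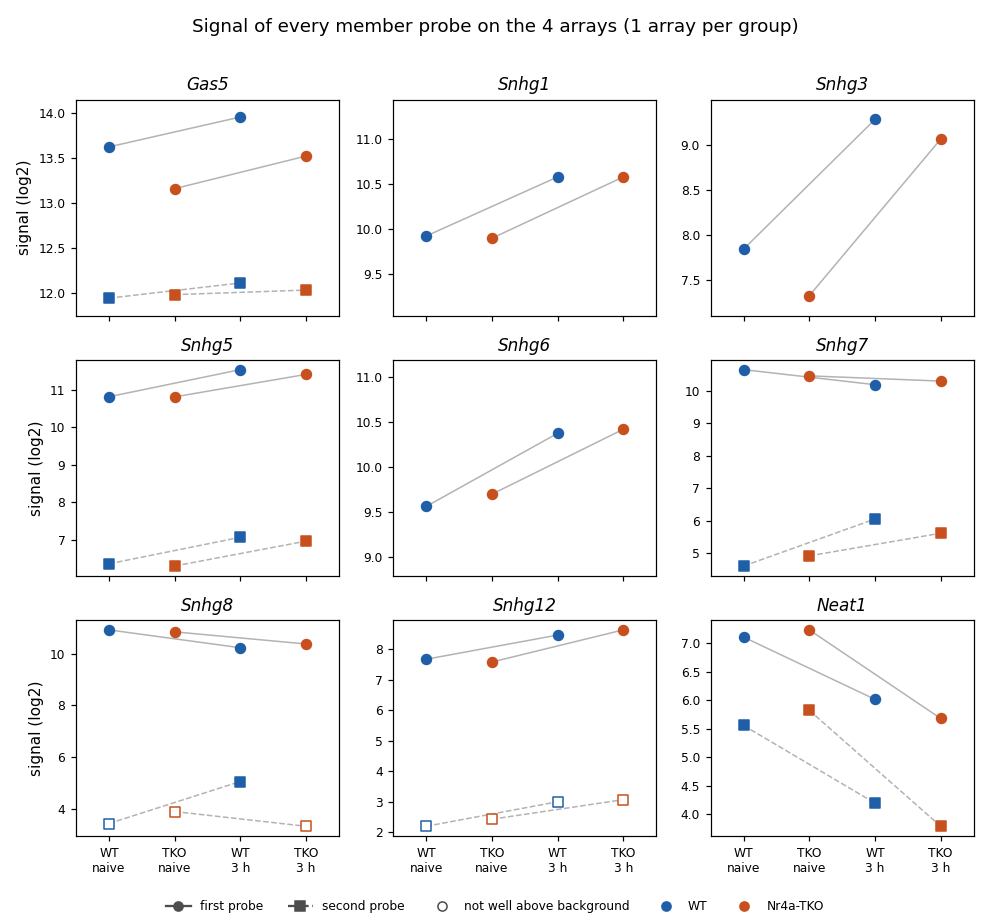
Signal (log2, y axis) of each of the 15 member probes on the 4 arrays (x axis), 1 panel per gene with its own y range; circles and squares are the first and second probe, lines join naive T to 3 h within a genotype, and open symbols are not well above background. Snhg1, Snhg3, Snhg5, Snhg6 and Snhg12 lie higher at 3 h on every probe well above background, both Neat1 probes lie lower, and the 2 probes of Snhg7 and of Snhg8 run in opposite directions in WT.

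Snhg3, the host of the H/ACA snoRNAs Snora73a and Snora73b, changed most among the hosts. It has 1 probe, on the minus strand of chromosome 4. The signal was 7.84 in WT naive T, 7.32 in Nr4a-TKO naive T, 9.28 in WT at 3 h and 9.06 in Nr4a-TKO at 3 h. Before normalization between arrays, the scanner's processed intensities in the same order were 206, 141, 725 and 581. Both 3 h arrays lay above both naive arrays, by 2.71-fold in WT (log2 1.44) and 3.34-fold in Nr4a-TKO (log2 1.74). These changes exceeded those of 95.7% and 97.9% of all genes tested. The change stayed over 2-fold under the alternatives of scaling and background correction, from 1.27 to 1.63 in WT and from 1.48 to 1.89 in Nr4a-TKO. The alternatives of probe choice and filter could not move it, since its 1 probe was well above background on every array.

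The array also carries a probe named for the snoRNA Snora73a, which RefSeq places inside Snhg3. It read 6.28 and 6.49 on the WT and Nr4a-TKO naive arrays and 7.16 and 7.61 at 3 h, changes of 0.88 and 1.12. Like Snhg3, it was higher on both 3 h arrays. Between genotypes it ran the other way: Snora73a was higher on the Nr4a-TKO arrays by 0.21 in naive T and 0.45 at 3 h, and Snhg3 was lower there by 0.52 and 0.22. Snora73a and Snora73b are close copies, and which of them, or how much unspliced host RNA, this probe reads was not tested. A probe on the opposite strand at Snhg3, from 131909533 to 131909592, moved from naive T to 3 h by 0.16 on the WT arrays and 0.36 on the Nr4a-TKO arrays, less than Snhg3 itself.

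Snhg12, which hosts Snora16a, Snora44, Snora61 and Snord99, lies on the other strand of the same chromosome. Its first probe, from 131866864 to 131866922, read 7.67, 7.58, 8.46 and 8.63 in the order used above. The changes were 0.79 in WT and 1.05 in Nr4a-TKO, a 2.08-fold rise that falls to 0.89 with a normexp offset of 50 and so loses its place past 2-fold. The second Snhg12 probe, which has no position in the files, was not well above background on any array and gives no change.

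Snhg1, Snhg5 and Snhg6 had smaller increases of much the same size. Snhg1, a host of C/D snoRNAs, has 1 probe on chromosome 19 from 8798913 to 8798972, with signals of 9.93 and 9.90 in WT and Nr4a-TKO naive T and of 10.58 in both at 3 h. Its change was 0.66 in WT and 0.68 in Nr4a-TKO, and the genotypes coincided at both stages within 0.03. Snhg6, the host of Snord87, has 1 probe on chromosome 1 from 9932175 to 9932234 and read 9.57, 9.70, 10.38 and 10.42, changes of 0.81 and 0.72.

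Snhg5 has 2 probes, which gave the same answer. On chromosome 9 one lies from 88415923 to 88415982 and the other from 88417098 to 88417157. The first read 10.82, 10.81, 11.54 and 11.41, and the second 6.37, 6.31, 7.07 and 6.97. In WT the changes were 0.72 and 0.71, and in Nr4a-TKO 0.60 and 0.66. The changes of the 2 probes differed by 0.06 or less in every comparison, within the spread of the arrays. None of Snhg1, Snhg5 and Snhg6 passed 2-fold here. Snhg6 in WT passed it when intensities were scaled to the 75th percentile (1.04) and in the deposited values (1.06).

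Gas5 was first described as a transcript that accumulates when growth is arrested, and its RNA can bind the glucocorticoid receptor. Its 2 probes are shown because the first differs between the genotypes and the second does not beyond the spread. The first lies on chromosome 1 within 162967641 to 162968147 on the plus strand and spans 507 bases of the genome for its 60 bases, so it crosses a splice junction and reads spliced RNA. The second lies from 162968590 to 162968649 without a gap.
Gas5 first probe: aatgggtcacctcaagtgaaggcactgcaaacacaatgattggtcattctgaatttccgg
Gas5 second probe: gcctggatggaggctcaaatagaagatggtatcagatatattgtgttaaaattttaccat
The first probe read 13.62 in WT naive T, 13.16 in Nr4a-TKO naive T, 13.95 in WT at 3 h and 13.52 in Nr4a-TKO at 3 h. Both Nr4a-TKO arrays lay below both WT arrays. The second read 11.94, 11.98, 12.11 and 12.03, which spans no more than the spread of the arrays. From naive T to 3 h the WT and Nr4a-TKO changes were 0.33 and 0.36 on the first probe and 0.17 and 0.05 on the second.

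The spliced Gas5 probe was thus lower on the arrays labelled Nr4a-TKO by 0.46 in naive T and 0.43 at 3 h, while the second probe differed by 0.04 and -0.08. The 2 probes disagreed by 0.50 in naive T, about double the 0.25 spread of such a comparison, and by 0.35 at 3 h. Further probes of intergenic noncoding RNA regions overlap the locus, 1 on each strand. The one on the opposite strand, from 162966197 to 162966256, had changes of 0.53 (WT) and 0.30 (Nr4a-TKO) and differed between genotypes by -0.06 and -0.29. The one on the Gas5 strand, from 162967716 to 162967775, changed by -0.11 and 0.13 and differed by 0.10 and 0.33. None of these values passed 2-fold. At 3 h these region probes differed between genotypes beyond the spread in opposite directions, and in naive T the junction probe was the 1 of the 4 to do so.

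Snhg7 and Snhg8 are the hosts whose brighter probes went down. The dimmer probe went the other way in both genotypes for Snhg7 and in WT for Snhg8, where Nr4a-TKO gave no change for it. Snhg7 hosts the H/ACA snoRNAs Snora17 and Snora43. Its probes on the minus strand of chromosome 2 lie from 26492756 to 26492815 and from 26493162 to 26493221.
Snhg7 first probe: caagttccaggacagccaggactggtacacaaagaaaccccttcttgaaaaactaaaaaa
Snhg7 second probe: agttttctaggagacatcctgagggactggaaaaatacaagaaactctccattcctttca
The first read 10.65, 10.46, 10.19 and 10.30, lowest on the 3 h arrays. The second read 4.60, 4.91, 6.05 and 5.61, highest on them, with processed intensities of 19.3, 24.8, 66.5 and 46.4. The WT and Nr4a-TKO changes were -0.46 and -0.16 on the first and 1.45 and 0.70 on the second. The probes differed by 1.91 in WT and 0.86 in Nr4a-TKO. Snhg7 therefore has no single direction on this array: averaging its probes gives 0.49 and 0.27, and scaling to the 75th percentile moves the first probe in Nr4a-TKO to 0.02. Which transcripts of the locus each probe reads was not tested.

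Snhg8, the host of Snora24, has a bright probe on chromosome 3 from 123210508 to 123210567, with signals of 10.93, 10.85, 10.24 and 10.38. It was lower on both 3 h arrays, by 0.69 in WT and 0.47 in Nr4a-TKO. The second probe, from 123210642 to 123210701, was well above background only in WT at 3 h, where it read 5.05. There it was at least 3.03-fold above WT naive T and at least 3.33-fold above Nr4a-TKO at 3 h, a bound that rests on 1 reading. In Nr4a-TKO it was not well above background at either stage. Averaging the 2 probes, the second at its bound, turns the WT change of Snhg8 to 0.45, and the Nr4a-TKO change has no second probe to average.

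**Figure D2:**
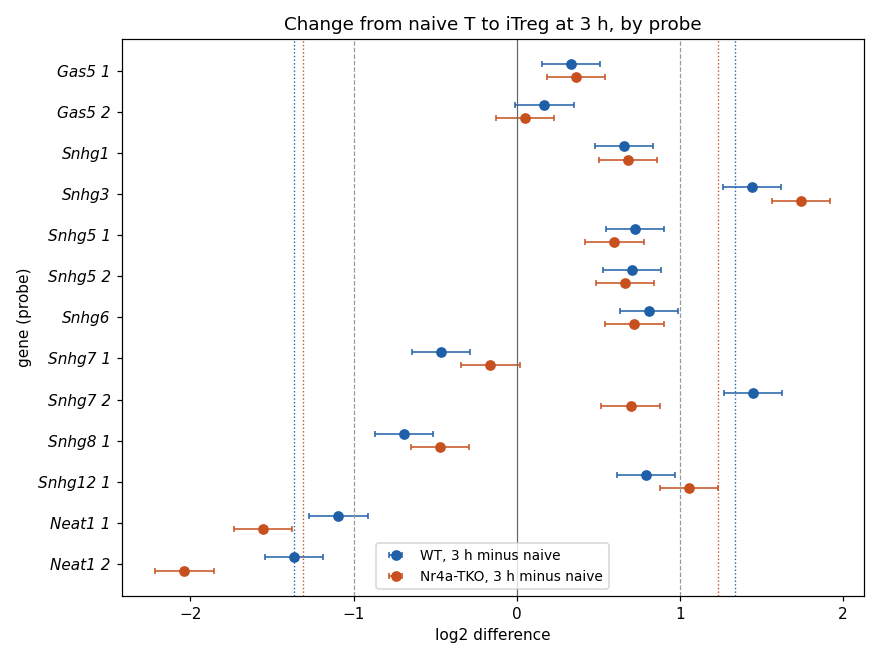
Log2 difference between iTreg at 3 h and naive T (x axis) in WT and Nr4a-TKO. Shown are the 13 member probes well above background on the 4 arrays (y axis). Bars are ± the SD of 0.18 from repeated spots. Dashed lines mark 2-fold and dotted lines the 5th and 95th percentiles of all genes in each genotype. Snhg3 lies beyond the 95th percentile in both genotypes, and the second Snhg7 probe in WT alone (1.45). The first Neat1 probe lies beyond the 5th in Nr4a-TKO alone, at -1.56 against -1.09 in WT. The second Neat1 probe lies beyond it in Nr4a-TKO (-2.04) and on its edge in WT (-1.36).

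Neat1 was lower at 3 h on both of its probes. The 2 probes named Neat1 lie on the minus strand of chromosome 19 from 5844378 to 5844437 and from 5844123 to 5844182. Another probe, named NEAT1 in capitals, lies on the same strand from 5842654 to 5842713. It falls outside the naming rule and is shown beside them.
Neat1 first probe: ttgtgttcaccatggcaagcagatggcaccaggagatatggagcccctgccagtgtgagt
Neat1 second probe: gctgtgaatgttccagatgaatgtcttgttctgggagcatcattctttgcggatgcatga
NEAT1 probe: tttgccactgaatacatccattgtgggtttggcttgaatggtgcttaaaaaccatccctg
The first probe read 7.11 in WT naive T, 7.23 in Nr4a-TKO naive T, 6.01 in WT at 3 h and 5.68 in Nr4a-TKO at 3 h. The second read 5.55, 5.82, 4.19 and 3.78, and the NEAT1 probe 9.12, 9.12, 7.52 and 7.76. On each of them both 3 h arrays lay below both naive arrays.

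The first probe fell 2.13-fold in WT (log2 -1.09) and 2.94-fold in Nr4a-TKO (log2 -1.56), and the second fell 2.57-fold (-1.36) and 4.10-fold (-2.04). The NEAT1 probe fell 3.03-fold (-1.60) and 2.57-fold (-1.36). On the first probe the WT fall depends on the background correction: it is -0.71 with an offset of 50 and -0.88 with no correction, both short of 2-fold, and the Nr4a-TKO fall is -0.99 with the offset. The sign held under every alternative in both genotypes. The second probe is dim, with processed intensities of 44.5 and 52.1 in naive T and of 8.8 on the lowest array, Nr4a-TKO at 3 h.

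Probes beside these on the opposite strand moved in the same direction. They belong to intergenic noncoding RNA regions known in the files by position, whose stated spans cover the Neat1 probes, and lie 842, 929 and 1168 bases from the second Neat1 probe. The probe from 5844965 to 5845024 had changes of -1.64 (WT) and -2.18 (Nr4a-TKO), that from 5845052 to 5845111 -1.21 and -1.31, and that from 5845291 to 5845350 -2.24 and -2.12. With the 3 probes above, these make 6 that were more than 2-fold lower at 3 h in both genotypes. Without an annotation of mm9, whether the opposite-strand probes lie over the Neat1 transcript was not tested.

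**Figure D3:**
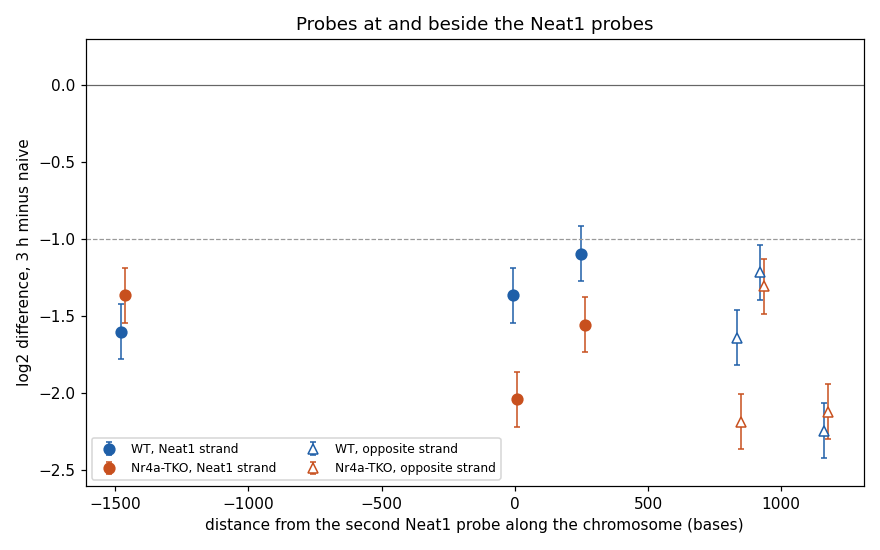
Log2 difference between 3 h and naive T (y axis) by distance from the second Neat1 probe along the chromosome (x axis, bases). Shown are the 2 Neat1 probes, the NEAT1 probe and the 3 opposite-strand probes beside them. Filled circles read the Neat1 strand and open triangles the opposite strand. Bars are ± the SD of 0.18 from repeated spots and the dashed line marks a 2-fold fall. All 6 probes lie below the dashed line in WT and in Nr4a-TKO, from -1.09 to -2.24.

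Malat1 lies near Neat1, but the positions in the files are on mm9 and no gene annotation of that build was used, so no probe could be matched to it. Nearby intergenic probes are given by position only. On the minus strand, the probe from 5798256 to 5798315 read 11.78, 11.70, 11.01 and 10.85, changes of -0.77 and -0.85. On the plus strand, the probe from 5797234 to 5797293 read 13.13, 13.12, 12.94 and 12.88, changes of -0.19 and -0.24. Neither passed 2-fold.

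Between the genotype labels no member differed by 2-fold at either stage on its brightest probe. The second Snhg8 probe, well above background on the WT array at 3 h alone, was at least 3.33-fold lower in Nr4a-TKO there. The median of the hosts was -0.08 in naive T and 0.02 at 3 h, against -0.02 and 0.00 over all genes. In Nr4a-TKO naive T, 1.92% of the genes tested were past 2-fold upwards and 1.68% downwards, and at 3 h 1.74% and 1.94%. Of the 13 probes well above background on every array, 8 differed by no more than 0.18 in naive T and 8 at 3 h. Over all genes the lower and upper quartiles were -0.19 and 0.16 in naive T and -0.16 and 0.18 at 3 h. Differences beyond the spread were thus common on the array, and those of the members do not set them apart. In naive T those beyond the spread were the first Gas5 probe (-0.46), Snhg3 (-0.52), both Snhg7 probes (-0.19 and 0.31) and the second Neat1 probe (0.27). At 3 h they were the first Gas5 probe (-0.43), Snhg3 (-0.22), the second Snhg7 probe (-0.44) and both Neat1 probes (-0.34 and -0.41). The NEAT1 probe, outside the naming rule, ran the other way at 3 h, by 0.24, and lay within the spread in naive T. Gas5 and Snhg3 kept their sign at both stages and under every alternative. Beside these values, the 4 B cell markers read higher on the Nr4a-TKO array at 3 h by 0.07 to 1.14, and the 8 naive T markers read lower there by 0.02 to 0.63. The erythroid markers Alas2 and Hba-a1 read higher there by 0.87 and 0.22, and in naive T they differed by 0.51 and -0.45. The B cell markers in naive T differed by -0.56 to 0.70, with 3 of 4 above 0. Activation genes differed in naive T by -1.86 (Tnfrsf9) to 1.25 (Irf4), with 5 of 8 above 0. At 3 h they differed by -3.60 (Tnfrsf9) to 1.20 (Il2), with 4 above 0. Myeloid markers differed in naive T by -2.70 (Cd14) to 0.12, with 2 of 4 above 0. The part of all these markers in the differences was not tested.

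**Figure D4:**
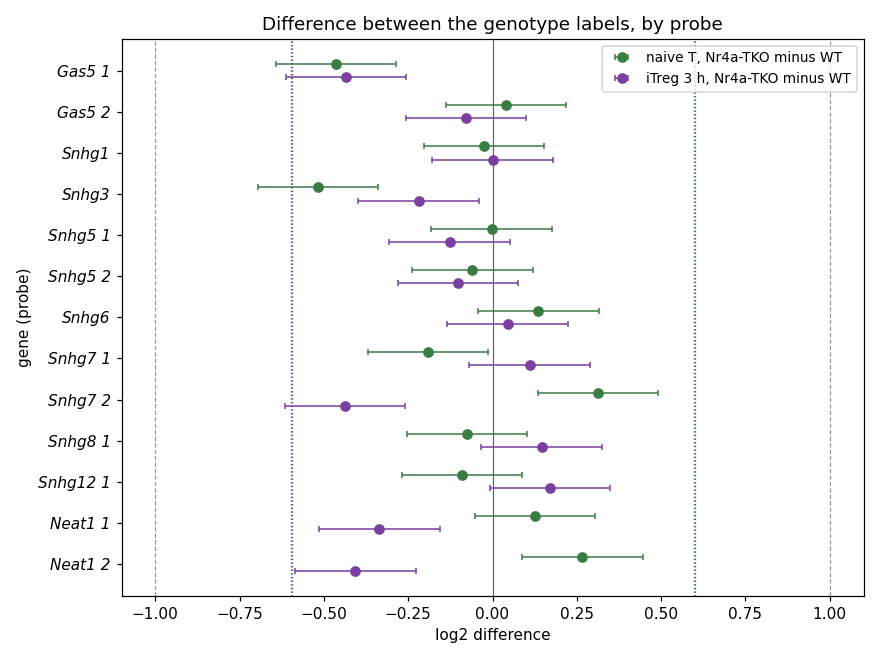
Log2 difference between the arrays labelled Nr4a-TKO and WT (x axis) for each of the 13 probes (y axis), in naive T and in iTreg at 3 h. Bars are ± the SD of 0.18 from repeated spots. Dashed lines mark 2-fold and dotted lines the 5th and 95th percentiles of all genes. All points lie between the dashed lines, and the first Gas5 probe lies below 0 at both stages. The second Gas5, both Snhg7, the first Snhg8, the first Snhg12 and both Neat1 probes change side between the stages.

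The response to culture, compared between genotypes as the Nr4a-TKO change minus the WT change, was close to 0 for Snhg1 (0.02) and Gas5 (0.03). It was 0.30 for Snhg3, 0.26 for Snhg12, 0.22 for Snhg8, -0.09 for Snhg6 and -0.12 for Snhg5, and its median over the hosts was 0.13 against 0.02 over all genes. The value of Snhg8 turns to -0.93 when its probes are averaged, which brings in the bound of the second probe in WT and nothing in Nr4a-TKO. For Neat1 it was -0.46 on the first probe and -0.67 on the second but 0.24 on the NEAT1 probe, so the probes did not share a direction. The second Snhg7 probe had -0.75 and the first 0.30. On the brightest probes no member reached 2-fold, which 1.72% of 19789 genes passed upwards and 1.58% downwards.

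Lists of related genes place these values among the machinery around them. Other noncoding snoRNA hosts had a median change of 0.42 in WT and 0.54 in Nr4a-TKO over 10 tested genes of 13 listed. Of these, 3 and 2 rose past 2-fold, beside 8.43% and 7.82% of all genes. The 10 are not the same genes in both genotypes: Snhg18 was tested in WT alone and Snhg11, at a bound of -0.57, in Nr4a-TKO alone. Snhg16 rose in both, by 1.95 and 2.02, and Snhg4, which was not well above background on the naive arrays, by at least 2.46 and 2.29. Snhg18 was well above background only in WT at 3 h, at least 2.26 above naive T. Snhg4 and Snhg18 are named because they complete the count. Snhg20 and Epb41l4aos changed by 0.95 and 0.43 in WT, and Snhg14 by -0.21. With the members, then, most noncoding hosts moved up by less than 2-fold.

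Protein-coding genes that carry snoRNAs in their introns split by class. Of 24 hosts coding for nucleolar, translation and other factors, 14 rose past 2-fold in each genotype, none fell, and the median was 1.33 in both. Over all genes, 8.43% in WT and 7.82% in Nr4a-TKO rose past 2-fold, and 8.57% and 8.01% fell. Gnl3, which codes for nucleostemin, rose by 2.77 in WT and 2.38 in Nr4a-TKO, Ppan, a ribosome biogenesis factor, by 2.56 and 2.33, and Rcc1, the exchange factor of the GTPase Ran, by 2.47 and 2.10. At the lower end were the translation factors Eif4a2 (-0.50 and -0.10) and Eef2 (-0.30 and -0.23) and the chromatin remodeller Chd8 (-0.19 and -0.25). Of 21 ribosomal protein genes that host snoRNAs, 0 passed 2-fold in either direction, with medians of -0.04 and -0.01 and WT changes from -0.41 for Rpl17 to 0.32 for Rps12. The noncoding members, with 0.69 and 0.64, lay between these classes. Probes of ribosomal protein genes can also read near-identical pseudogene copies.

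The proteins that bind and assemble snoRNAs went up with the first of those classes. Of 19 snoRNP protein genes tested, 15 rose past 2-fold in each genotype, beside 8.43% and 7.82% of all genes. None fell, and the medians were 1.60 in WT and 1.45 in Nr4a-TKO. The H/ACA assembly factor Naf1 rose by 2.75 and 2.91, Nolc1, a nucleolar and Cajal body chaperone of snoRNPs, by 2.52 and 2.56, and Znhit6, a C/D assembly factor, by 2.45 and 1.5. Fbl, the methyltransferase of C/D snoRNPs, rose by 1.60 and 1.45 and Dkc1, the pseudouridine synthase of H/ACA snoRNPs, by 2.19 and 1.79. Fbl and Dkc1 were named for these roles after their values were seen. Pih1d1, a subunit of the R2TP chaperone complex, was the 1 gene below 0, with -0.44 and -0.48. Nop56, Nop58 and Dkc1 stand in both this list and the list of protein-coding hosts.

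**Figure D5:**
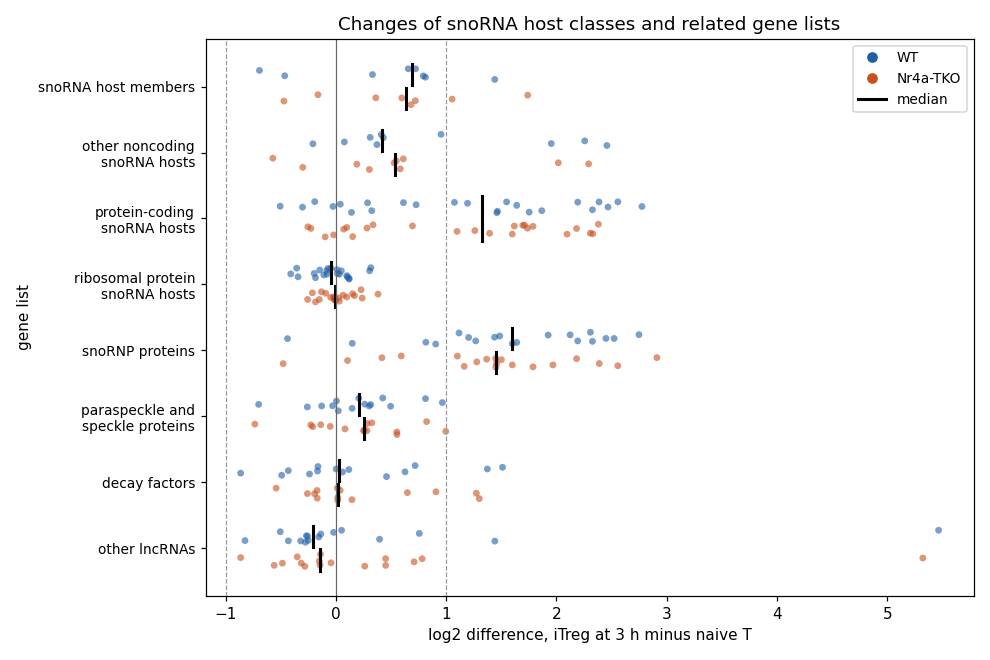
Log2 difference between 3 h and naive T (x axis) of each gene tested in 8 lists (y axis), in WT and Nr4a-TKO; each point is 1 gene (at its bound where 1 array was not well above background), black bars are medians, the vertical scatter is only to separate points, and dashed lines mark 2-fold. The snoRNA host members have medians of 0.69 and 0.64, protein-coding hosts 1.33 in both genotypes, snoRNP proteins 1.60 and 1.45, and ribosomal protein hosts -0.04 and -0.01.

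Proteins of paraspeckles and speckles, the bodies in which Neat1 and Malat1 reside, stayed within 2-fold: 0 of 15 genes passed it in either genotype, with medians of 0.21 and 0.26. Over all genes, too, only 8.43% in WT and 7.82% in Nr4a-TKO rose past it, and 8.57% and 8.01% fell. The paraspeckle proteins Nono (-0.26 and -0.23) and Hnrnph3 (-0.70 and -0.73) were at the lower end and Tardbp (0.97 and 1.00) and Nudt21 (0.50 and 0.82) at the upper. Of 14 nonsense-mediated decay genes tested, 2 rose past 2-fold in both genotypes, beside the same 8.43% and 7.82% of all genes, and none fell. The 2 were the exon junction subunits Magoh (1.51 and 1.27) and Rbm8a (1.37 and 1.30). Upf1, the central helicase of decay, changed by 0.46 and 0.04 and Smg1, its kinase, by -0.49 and -0.26. Upf1 was named after its value was seen.

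Other long noncoding RNAs had mostly small changes. Of 16 tested, 0 fell past 2-fold in either genotype, beside 8.57% and 8.01% of all genes, with medians of -0.20 and -0.14. Among all genes, 8.43% in WT and 7.82% in Nr4a-TKO rose past 2-fold. In WT 2 rose, Pvt1, which lies beside Myc, by 1.44 (0.78 in Nr4a-TKO), and Mir155hg, the precursor of miR-155, by at least 5.46 and 5.32 against naive arrays where it was not well above background. Norad changed by 0.76 and 0.71 and Lncpint by -0.50 and -0.86. Mir155hg was named because it completes the count.

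Probes named for snoRNAs or related small RNAs were listed after the array names had been read. Over 14 of them the median change was 0.60 in WT and 0.44 in Nr4a-TKO, with 2 and 3 past 2-fold upwards and 1 downwards in each. Of all genes, 8.43% and 7.82% were past 2-fold upwards and 8.57% and 8.01% downwards. Snora23, which lies in Ipo7, changed by 1.16 and 0.99 and Snora74a, which lies in Snhg4, by 1.05 and 1.27. Snora81, which lies in Eif4a2, had -1.17 and -0.59, below 0 like its host. Snord33, which lies in Rpl13a, ran against its host: it had 0.85 and 0.41, and Rpl13a had -0.34 and -0.26. How much unspliced host RNA the probes named for snoRNAs read was not tested. Rnu3b1, a U3 snoRNA gene, had -0.98 and -1.57.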

How the data were processed

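Expression was measured on 4 single-colour arrays, 1 per group. The deposited scanner files come from Agilent Feature Extraction 11.5.1.1 (named in the submitters' processing notes), and hold, per spot, the mean and local background intensity, a processed intensity and marks for detection, saturation and outliers. Processed intensities are background-subtracted and not normalized between arrays. Probe positions there use mm9. Deposited log2 values were used as an alternative: the methods of the authors name RMA, while the 75th percentile of each array is 0.

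The steps of RMA were followed with limma 3.58.1 in R 4.3.3 and the data.table package, version 1.17.8: normexp with an offset of 0, quantile normalization over the 4 arrays, log2 and the mean over spots of a probe, without control or outlier spots. Later steps and plots used matplotlib 3.10.9, numpy 2.4.6 and pandas 2.3.3 in Python 3.11.15. Of several probes of a gene, that with the highest mean signal stood for it. Where 1 of 2 arrays was not well above background, that array's value became the lowest among its probes well above background, unless already higher, and the difference is a bound. The threshold was 2-fold. With 1 array per group there is no spread between replicates and no test. Feature Extraction gave an error of 10% to 18.8% for member probes.

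Members and lists were chosen with earlier results of these data known. Every member probe is named. Of each list, the up to 3 genes with the largest WT change in each direction among those well above background on the 4 arrays were named, and some items the rule would name are not reported here. Sequences came from the scanner files and from RefSeq promoters of GRCm38.p6. That promoter table has no entry for Snhg6 or Neat1. Of probes, 41700 carry a current symbol, 1518 were named by transcript and 520 by synonym. Counting past 2-fold was tested on simulated data. The alternatives were scaling to the 75th percentile, an offset of 50, the mean over a gene's probes, intensities left uncorrected for background, the authors' log2 values, stricter and no filters on dim probes, and thresholds of 1.5-fold and 3-fold.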

Additional observations from a re-analysis of the deposited data

Results flagged for a closer look

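Differences between the genotype labels that ran in opposite directions at the 2 stages, each beyond the 0.18 spread of the arrays, occurred at 2 member probes. The second Snhg7 probe differed between Nr4a-TKO and WT by 0.31 in naive T and by -0.44 at 3 h. The second Neat1 probe differed by 0.27 in naive T and by -0.41 at 3 h. With 1 array per group, the change of direction was not tested. Both are the dimmer probes of their genes. The first Neat1 probe ran in the same directions, with 0.13 and -0.34, while the probe named NEAT1 in capitals did not, with 0.24 at 3 h, and the first Snhg7 probe in the other directions, with -0.19 and 0.11.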

How the results depend on the processing

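The median change of the 8 snoRNA hosts stayed above 0 in both genotypes under every alternative. It moved from 0.69 to 0.88 in WT and from 0.64 to 0.85 in Nr4a-TKO with scaling to the 75th percentile, and to 0.90 and 0.86 in the deposited values. Under that scaling the median of all genes was -0.11 in WT and -0.06 in Nr4a-TKO. Both scalings raised the number of members more than 2-fold higher in WT from 1 to 2. An offset of 50 or no background correction lowered that in Nr4a-TKO from 2 to 1. The number more than 2-fold lower went from 1 to 0 in WT with either, and from 1 to 0 in Nr4a-TKO with the offset. At 1.5-fold, 5 members were higher in each genotype and 2 lower in WT. At 3-fold, 0 were higher in WT, 1 in Nr4a-TKO and 0 lower in either. Of 315 values of single members under an alternative, 37 moved by more than 0.18 and no value past 2-fold changed sign. The filters on dim probes could move none of them, since each member's brightest probe was well above background on every array. Smaller values that changed sign in the changes to 3 h were those of Snhg7 in both genotypes and of Snhg8 in WT. With the mean over a gene's probes, the 3 h difference between genotypes of Snhg8 turned from 0.15 to -0.80 and its difference of changes from 0.22 to -0.93, both resting on the bound of its second probe, and both values of Snhg7 also turned. No paired analysis was possible because each group has 1 array. For the same reason no array could be left out, and with 1 slide and 1 scan neither could serve as a block. The limit of detection left the second Snhg12 probe without a value and the second Snhg8 probe with bounds from 1 array.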
